A study of Macaca fascicularis with 6 samples.

Results

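Cells of iPS cell-derived cartilage organoids recovered from the knee (post-transplant cyiPS-Cart) were compared with cells of intact articular cartilage (cyAC), to read which transcripts still differed 4 months after surgery. All cells of both tissues in the deposited matrix were used, chosen by the sample prefix of the cell names, which gave 320 cells for each tissue and 640 of the 1280 cells of that matrix. The series holds 7007 differently named cells. The post-transplant cells came from organoids made of 1 cynomolgus monkey iPS cell line that carries an EGFP reporter under the constitutively active CAG promoter. Organoids were cultured with BMP2, TGF-β1 and GDF5 and then placed without immunosuppressive drugs into chondral defects, which stop short of the bone, in the knees of MHC-mismatched monkeys. The recipients and the monkeys that gave cyAC were wild type, 3 to 4 years old and, by the methods, male. Organoid cartilage before transplantation (pre-transplant cyiPS-Cart) and the fibrous tissue of defects left empty (cyFT), 320 cells each, are given as levels beside the comparison where they help to read it.

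Articular cartilage is built by chondrocytes, which lay down a network of type II collagen fibrils with types IX and XI, fill it with the proteoglycan aggrecan, and line the joint surface with the lubricant proteoglycan 4. Type I and type III collagen belong to skin, tendon, bone and scar tissue, and to the immature cartilage of the growing embryo, where they are lost as hyaline cartilage matures. Chondrocytes are known to begin expressing fibrous collagens when they are expanded in culture, and a tissue can make hyaline matrix and fibrous collagens side by side.

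The level of a gene is the sum of its reads over the cells of a sample per 1000000 reads (CPM), and the difference is the log2 ratio of summed CPM + 1, post-transplant cyiPS-Cart over cyAC, so that positive values are higher in the graft. Every tissue was 1 sample in its own conditions. By the methods, 3 monkeys of a group were taken at a time point and 2 transplanted sites of a monkey were combined, but which animals gave the cells of each sample is not given in the sources used here, and a share of cells may be one over several animals. No test between the tissues was possible, and none was run. The 95% intervals of levels and folds treat every read as an independent count, and those of shares treat every cell so. The counts are reads and not molecules, and a molecule can give several reads. Intervals of levels and folds can thus be narrower than the counting error, and none covers a spread between animals. Post-transplant cells and cyAC cells were sequenced in different libraries, from donors of different genotype, so that tissue, library and genotype cannot be told apart in any difference below. The post-transplant sample held 29855420 reads and the cyAC sample 11825548, with medians of 80335.5 and 29699 reads and 2594.5 and 2284 genes per cell. Shares of cells grow with depth, so some are also given after cells were thinned to 16101 reads. Cells with fewer reads were left out of these thinned shares, which rest on 319 post-transplant and 288 cyAC cells. No cell barcode was shared between the 2 samples. In genes of high level the authors replaced counts that looked like RNA spread from other cells by 0, and the lowest count left differs between the samples. For 131 of the 3235 genes compared the lowest count was over 5 reads in at least one sample (114 genes in the post-transplant sample, 40 in cyAC). Where raising every zero of a gene to 1 read below its lowest count moved the ratio of a named gene by over 1.5 times, the raised value is given beside it.

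By their markers both tissues were cartilage, and the graft carried the donor's reporter. The transgene appears among the genes as *GFP-polyA*, and its reads were in 320 of 320 post-transplant cells at 5504 CPM and in 0 of 320 cyAC cells, which allows a share of cells with reads of up to 0.938% if the zeros are taken as counted. The lowest count in the graft was 50 reads. The level of *COL2A1*, which encodes the main collagen of cartilage, was 49488 CPM in the graft and 47409.9 CPM in cyAC. The level of *ACAN*, which encodes aggrecan, was 5559 CPM in the graft and 5215 CPM in cyAC. These were log2 ratios of 0.06 and 0.09. Reads of at least 3 of 7 chondrocyte markers were in 318 post-transplant and 317 cyAC cells, and also in 318 pre-transplant and 298 cyFT cells, so that this count does not set cartilage apart from the fibrous tissue. Most graft cells were of one class, with *COL2A1* reads and no *COL1A1* reads in 265 cells, both in 47, *COL1A1* alone in 7 and neither in 1. In cyAC the same classes held 276, 3, 16 and 25 cells. These classes rest on the counts left after the authors replaced likely stray reads by 0. A cell listed without *COL1A1* reads is thus not shown to lack the transcript, here or below. *COL1A1*, which encodes a chain of type I collagen, was at 10168 CPM in 16.9% of graft cells (12.9 to 21.4) and at 1196 CPM in 5.94% of cyAC cells (3.61 to 9.12), and with fewer than 25% of the cells in both it was not among the genes compared.

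Of 14020 listed genes, 3235 reached 50 CPM in the graft or cyAC and were read in 25% or more of the cells of one of them. A gene is called past the fold when its log2 ratio was at least 1 or at most -1. This held for 348 genes higher in post-transplant cyiPS-Cart, 10.8% of the genes compared, and for 575 genes higher in cyAC, 17.8%. The median log2 ratio over the 3235 genes was -0.13, with quartiles of -0.75 and 0.47, and 1359 genes lay within 0.5 of 0. Scaling by edgeR's TMM factors moved that median to 0.01 and the calls to 424 and 506. Log2 ratios of at least 2 were seen for 74 genes and of at most -2 for 179. The thresholds cut through a dense part of the distribution, since 53 genes lay between 1.0 and 1.1 and 51 between 0.9 and 1.0, while 51 lay between -1.1 and -1.0 and 79 between -1.0 and -0.9. For the higher of its 2 levels, the 95% counting interval of a compared gene reached at most 8.39% above the value. A gene could pass the filter through either tissue alone. Of the 3235 genes, 2107 passed in both, with 138 and 236 past the fold, while of the 491 that passed through the graft alone 210 were past it upward and of the 629 that passed through cyAC alone 338 were past it downward. In the lists below, counts past the fold are to be read against the 10.8% and 17.8% and against this choice, and a gene inside the fold is one whose log2 ratio lay between -1 and 1. The lists were assembled for this tissue with earlier results of these data known.

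**Figure D1:**
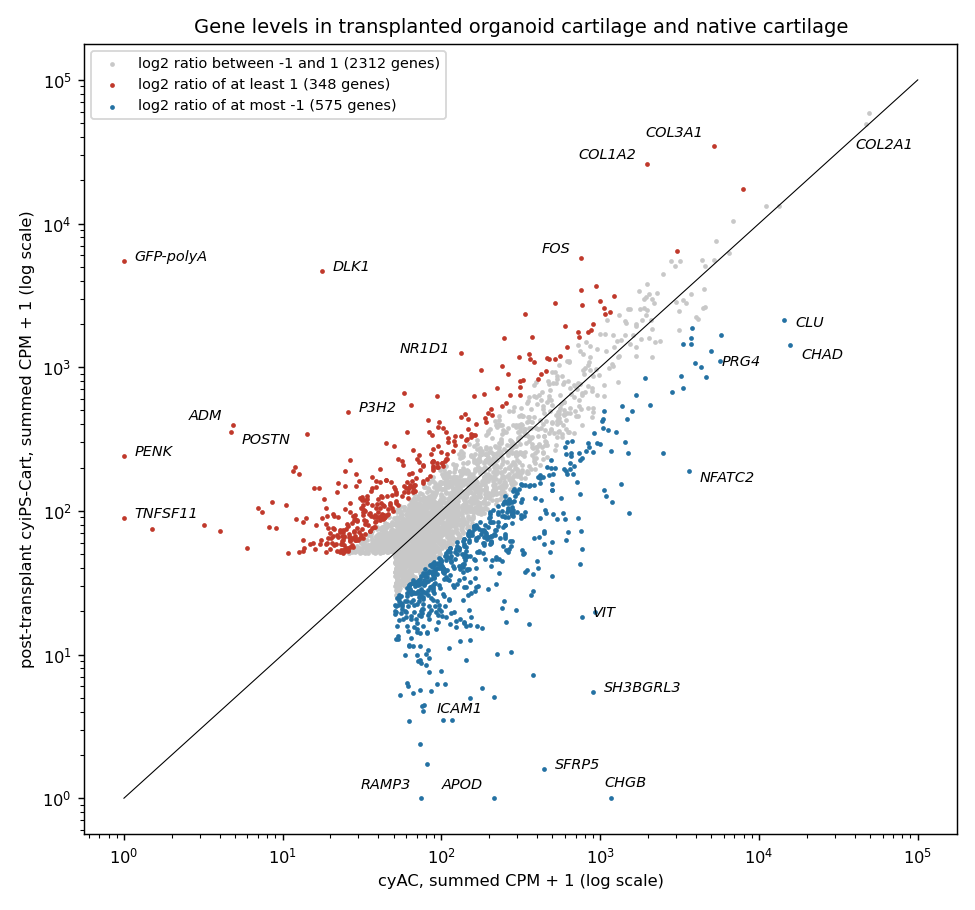
Summed level of each of 3235 genes in cyAC (horizontal axis, CPM + 1, log scale) and in post-transplant cyiPS-Cart (vertical axis, CPM + 1, log scale), with the line of equal levels; red points are the 348 genes past the fold upward and blue points the 575 past it downward. *COL2A1* lies on the line, while *COL1A2* and *COL3A1* lie above it and *CHAD*, *CLU* and *PRG4* below it.

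The collagens of cartilage fibrils stood close to native levels, and the collagens of fibrous tissue did not. All 6 listed cartilage fibril collagens passed the filter, and of these 0 were past the fold upward and 1 downward, with a median log2 ratio of 0.21. *COL9A1*, which encodes a chain of the type IX collagen that decorates the fibrils, was at 10498 and 6879 CPM in the graft and cyAC. *COL11A1*, whose type XI collagen forms the core of thin fibrils, was at 7528 and 5379.6 CPM. The exception was *COL27A1*, a gene of a large cartilage collagen, with 116 CPM in the graft and 287 CPM in cyAC (log2 ratio -1.30). Of the 7 of 9 listed fibrous and other fibril collagens that passed the filter, 5 were past the fold upward and 1 downward, with a median of 2.14.

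*COL1A2*, which encodes the α2 chain of type I collagen, was at 25852 CPM (25794 to 25909) in post-transplant cyiPS-Cart and at 1962 CPM (1937 to 1988) in cyAC. It was 13.2-fold higher in the graft (13 to 13.3), a log2 ratio of 3.72, against 3861 CPM in pre-transplant cyiPS-Cart and 18279 CPM in cyFT. Reads were in 88.4% of graft cells (84.4 to 91.7) and 11.6% of cyAC cells (8.27 to 15.6). These shares count cells above the lowest counts left by the authors, which are given below. Within cells that had *COL2A1* reads and no *COL1A1* reads, the level was 20977 CPM in the graft and 62.9 CPM in cyAC, and within cells that had *COL1A1* reads it was 48741 and 28754 CPM. *COL1A2* reads thus stood in 86.8% of the *COL2A1*-only cells of the graft and in 1.45% of those of cyAC. The lowest non-zero count was 268 reads in the graft and 92 in cyAC, so any cell below these counts is listed at 0. With the zeros raised, the log2 ratio was 2.66.

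*COL3A1*, which encodes type III collagen, was at 34538 CPM in the graft and 5177 CPM in cyAC (6.67-fold, 6.62 to 6.73), with 11792 CPM before transplantation and 10222 CPM in cyFT. Nearly every cell of both tissues had reads, 99.4% and 100%. The cells differed in level, and 99.4% of the graft cells lay above the median cyAC cell and 98.8% above the 90th percentile of cyAC cells. *COL5A2*, which encodes a chain of the type V collagen that nucleates type I fibrils, was at 2332 and 337 CPM (log2 ratio 2.79). *COL14A1*, whose type XIV collagen binds to fibril surfaces, ran the other way with 88.8 CPM in the graft and 726 CPM in cyAC (log2 ratio -3.02). Of the 4 network and pericellular collagens compared, 3 were past the fold upward, and *COL8A1*, whose type VIII collagen forms networks around cells, was the furthest with 75.4 and 8.12 CPM. It was found in 36.2% of graft cells and 4.06% of cyAC cells, and *COL6A3*, a gene of the type VI collagen of the pericellular matrix, was at 314 and 143 CPM.

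**Figure D2:**
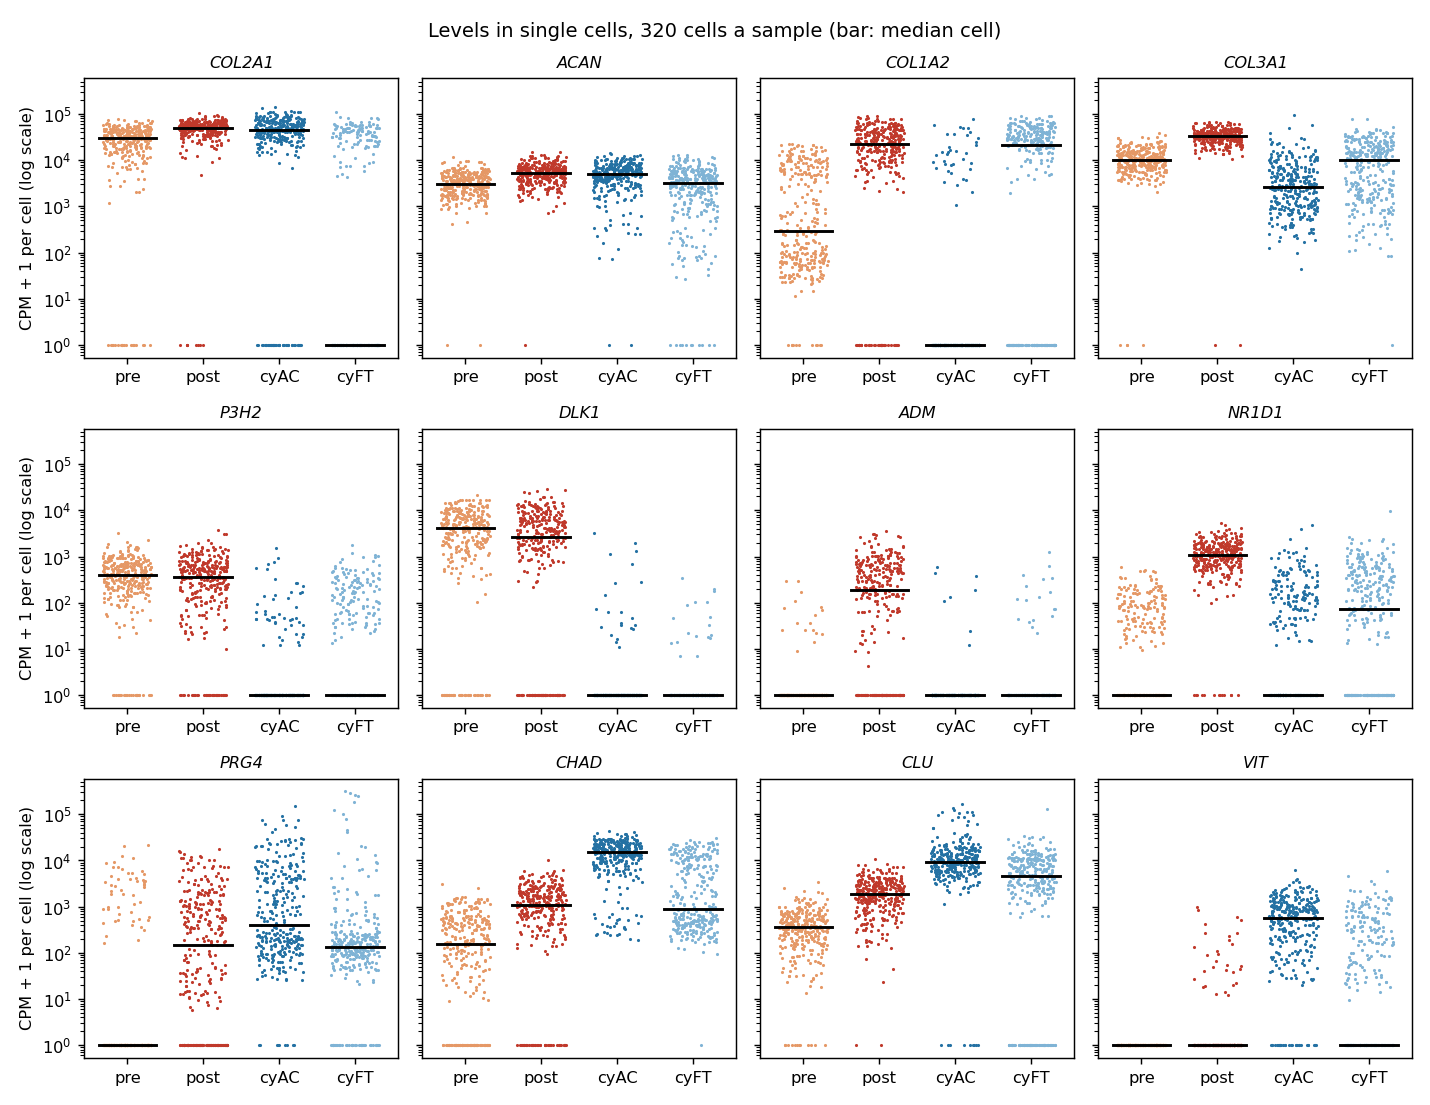
Level of 12 genes in each of 320 cells of pre-transplant cyiPS-Cart (pre), post-transplant cyiPS-Cart (post), cyAC and cyFT, as CPM + 1 per cell on a log scale, with a bar at the median cell. *COL1A2* was read in 88.4% of the graft cells but in 11.6% of those of cyAC, whereas *COL2A1* and *ACAN* lay at like levels in both.

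Genes that modify and cross-link collagen leaned toward the graft. Of the 18 of 19 listed that passed the filter, 7 were past the fold upward and 1 downward, with a median log2 ratio of 0.65. *P3H2*, which encodes a prolyl 3-hydroxylase of collagen, had 485 CPM in post-transplant cyiPS-Cart and 24.6 CPM in cyAC, with 497 CPM before transplantation and 126 CPM in cyFT. Its reads were in 89.1% of graft cells and 15% of cyAC cells, or 83.4% and 11.8% after thinning, and the graft was 19.7-fold higher (17.5 to 22.2). Only 1.88% of cyAC cells lay above the median graft cell. *LOX* and *LOXL1*, which encode enzymes that cross-link collagen and elastin, were at 354 and 108 CPM in the graft and at 105 and 31.1 CPM in cyAC. The member past the fold downward was *PCOLCE2*, an enhancer of procollagen processing, with 224 CPM in the graft and 744 CPM in cyAC. *SERPINH1*, the collagen chaperone HSP47, was inside the fold at 1712 and 1074 CPM.

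Aggrecan and its link protein lay inside the fold, and versican and hyaluronan genes lay outside it. Of the 7 of 10 listed genes for aggrecan, link proteins and hyaluronan that passed the filter, 1 was past the fold upward and 3 downward. *HAPLN1*, for the link protein that ties aggrecan to hyaluronan, was at 2459 CPM in the graft and 3136 CPM in cyAC. *VCAN*, which encodes versican, the large proteoglycan of immature cartilage and loose connective tissue, was at 659 CPM in 92.2% of graft cells and at 57.1 CPM in 26.9% of cyAC cells. The graft was 11.5-fold higher (10.7 to 12.5). *HAS2*, which encodes the main hyaluronan synthase, was lower in the graft at 96.2 CPM against 281 CPM. *UGDH*, whose enzyme makes the UDP-glucuronate that hyaluronan and chondroitin chains need, was at 49.8 CPM in the graft and 328 CPM in cyAC. *CD44*, which encodes the hyaluronan receptor, was at 15.8 and 138 CPM, with lowest counts of 8 and 6 reads, and its log2 ratio went from -3.04 to -1.44 with the zeros raised. Of 13 genes for sulfation and glycosaminoglycan synthesis compared, 1 was past the fold upward and 3 downward, and among the latter *CHPF*, a chondroitin polymerizing factor, was at 156 and 417 CPM and the sulfate transporter gene *SLC26A2* at 16.8 and 63.0 CPM.

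The small leucine-rich proteoglycans, which space the fibrils, were mostly inside the fold, with one large exception. Of the 10 of 13 listed that passed the filter, 2 were past the fold upward and 1 downward. *BGN*, for biglycan, was at 13144 CPM in the graft and 13397 CPM in cyAC, and *FMOD*, for fibromodulin, was higher in the graft at 17292 against 7889 CPM. *CHAD*, which encodes chondroadherin, a cartilage protein that binds chondrocytes through integrins, was at 1436 CPM (1422 to 1449) in the graft and 15717 CPM (15646 to 15789) in cyAC. It had 356 CPM before transplantation and 7669 CPM in cyFT. The graft was 10.9-fold lower (10.8 to 11.1). Reads were in 87.2% of graft cells and 100% of cyAC cells, 0% of graft cells lay above the median cyAC cell, and the log2 ratio was -3.45 in all cells and -3.49 in cells with *COL2A1* and no *COL1A1* reads. 

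Other matrix proteins split in both directions. Of the 33 of 46 listed that passed the filter, 9 were past the fold upward and 7 downward, with a median of -0.35. *POSTN*, for periostin of tendon, ligament and periosteum, was at 355 CPM in 28.4% of graft cells, at 3.72 CPM in 3.75% of cyAC cells, and at 2248 CPM before transplantation. *MATN4*, which encodes a matrilin that links matrix networks, was at 201 CPM in the graft, 10.9 CPM in cyAC and 313 CPM before transplantation. Its reads were in 51.9% of graft cells and 3.12% of cyAC cells, and the log2 ratio was 4.08, or 2.40 with the zeros raised. *SPARC*, the collagen-binding osteonectin gene, was inside the fold at 59193 and 49048 CPM. *VIT*, which encodes vitrin, was at 17.4 CPM in 9.38% of graft cells and at 769 CPM in 90.3% of cyAC cells. No *VIT* read was found before transplantation, cyFT had 310.2 CPM, and the graft was 44.3-fold below cyAC (40.6 to 48.5). *CHI3L2*, for a secreted chitinase-like protein of chondrocytes, was at 15.3 and 353 CPM.

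Most of the genes of the joint surface that passed the filter were lower in the graft. Of the 10 of 13 listed superficial zone genes that passed the filter, 1 was past the fold upward and 6 downward, and the median log2 ratio was -2.35. With the zeros raised, 2 were past it upward and 5 downward, and the median was -0.95. Summed over the 13 listed genes the level was 4603 CPM in the graft and 22359 CPM in cyAC, and 2.50% of graft cells lay above the median cyAC cell. *PRG4*, which encodes the lubricant proteoglycan 4, was at 1289 CPM in the graft and 4986 CPM in cyAC, 3.87-fold lower (3.82 to 3.92), with 538 CPM before transplantation and 6419 CPM in cyFT. Its reads were in 70.9% of graft cells and 97.2% of cyAC cells, or 60.5% and 91.0% after thinning. The 2 tissues overlapped widely in this gene, with the middle 80% of cells between 0 and 3895 CPM in the graft and between 58.9 and 14589 CPM in cyAC, and 39.7% of graft cells lay above the median cyAC cell. *CLU*, which encodes clusterin, a secreted chaperone, was at 2139.5 CPM in the graft, 14457 CPM in cyAC, 438 CPM before transplantation and 5846 CPM in cyFT. It overlapped less, since 0.312% of graft cells lay above the median cyAC cell. *SFRP5*, which encodes a secreted WNT antagonist, was at 0.603 CPM in 1 graft cell and at 444 CPM in 47.8% of cyAC cells. The only count of *SFRP5* in the graft was 18 reads, and raising the zeros took its log2 ratio from -8.12 to -1.28. For *TPPP3*, a tubulin-binding protein gene, the same step turned the log2 ratio from -3.40 to 1.27, with a lowest count of 13 reads in the graft, so its direction depends on how those zeros are treated.

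Several growth factor genes were far apart between the tissues. *DLK1*, an imprinted gene for a membrane-bound Notch family protein of fetal and precursor cells, was at 4699 CPM in the graft and 16.7 CPM in cyAC, with 4801 CPM before transplantation and 4.60 CPM in cyFT. Reads were in 76.9% of graft cells and 6.88% of cyAC cells, and the graft was 281-fold higher (244 to 324). Of the 8 of 15 listed IGF ligand and binding protein genes that passed the filter, 6 were past the fold upward and 2 downward, with a median of 1.72. The direction of one of the latter was not stable. *IGFBP5*, for an IGF-binding protein and named after its values were seen, was at 66.8 CPM in the graft and 191 CPM in cyAC, and its log2 ratio was -0.57 with the zeros raised and turned to 1.07 in cells with *COL2A1* and no *COL1A1* reads. *IGF2*, which encodes the fetal insulin-like growth factor and is also imprinted, was at 2788 CPM in the graft, 518 CPM in cyAC, 827 CPM before transplantation and 86.7 CPM in cyFT. *PAPPA2*, whose protease frees IGF from binding proteins, was at 74.3 CPM in 28.8% of graft cells and at 0.507 CPM in 0.625% of cyAC cells, with log2 ratios of 5.64 and, with the zeros raised, 1.41. *IGF2R*, which encodes the receptor that clears IGF2, was also higher in the graft at 890.5 against 262 CPM. The binding protein gene *IGFBP6* was lower in the graft, at 26.7 CPM against 374 CPM, and its log2 ratio of -3.76 was -1.84 with the zeros raised.

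Among BMP and GDF genes 13 of 25 listed passed the filter, and 6 were past the fold upward and 3 downward. The upward group held target genes of the pathway, *ID1* at 653 CPM in the graft and 184 CPM in cyAC and *ID2* at 1746 and 726 CPM, both encoding inhibitors of helix-loop-helix factors. Before transplantation *ID1* stood at 67.3 CPM and *ID2* at 81.5 CPM. It also held *BAMBI*, for a decoy receptor, at 294 and 43.8 CPM. The ligand gene *GDF10* was lower in the graft at 2.51 against 115 CPM, as was *CHRDL2*, for a BMP antagonist, at 6.73 against 98.9 CPM. Of the 16 of 26 listed TGF-β pathway genes that passed the filter, 3 were past the fold upward and 6 downward. *INHBA*, which encodes the activin A subunit, was at 251 CPM in the graft and 2475 CPM in cyAC, and *TGFBR1*, the type I receptor gene, was at 16.8 and 82.8 CPM.

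The WNT antagonists were divided. Of the 6 of 26 listed WNT genes that passed the filter, 2 were past the fold upward and 3 downward, or 1 upward with the zeros raised. *NOTUM*, whose enzyme inactivates WNT ligands, was at 78.6 CPM in 38.4% of graft cells and 2.20 CPM in 2.19% of cyAC cells. *FRZB* and *WIF1*, which encode antagonists typical of articular chondrocytes, were lower in the graft, with 1455 against 3297 CPM and 122 against 387 CPM. *DKK3*, for a secreted protein of the Dickkopf family, was at 269 and 87.6 CPM, with a log2 ratio of 1.61 that became 4.46 in cells with *COL2A1* and no *COL1A1* reads and 0.18 with the zeros raised. Of the 10 of 21 listed FGF and hedgehog genes that passed the filter, 3 were past the fold upward and 2 downward. *FGFR3*, which encodes the receptor that restrains cartilage growth, was at 473 CPM in 90.3% of graft cells and 139.5 CPM in 50.0% of cyAC cells. *DUSP6*, a feedback inhibitor gene of ERK, was at 120.0 and 17.3 CPM, and *PTHLH*, for the peptide that holds chondrocytes from hypertrophy, at 136 and 35.2 CPM. *FGFBP2*, for an FGF-binding protein, was lower in the graft at 25 against 367 CPM.

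Chondrogenic transcription factors were present in both tissues, and of the 7 of 18 listed that passed the filter 4 were past the fold downward and 0 upward, with a median of -1.02. *SOX9*, the master regulator of chondrocytes, was at 785 CPM in 90.6% of graft cells and at 395 CPM in 69.4% of cyAC cells, a log2 ratio of 0.99 that was just inside the fold. *SOX5*, its partner in switching on cartilage genes, was lower in the graft at 77.8 against 158 CPM. *NFIA*, *NFIB* and *ZBTB20*, which encode further transcription factors, were at 37.8, 25.9 and 21.6 CPM in the graft and at 144, 88.6 and 76.0 CPM in cyAC. Of the 7 of 17 listed hypertrophy and mineralization genes that passed the filter, 0 were past the fold in either direction, with log2 ratios from -0.96 to 0.15. *MGP*, which encodes an inhibitor of calcification, was at 5092 CPM in the graft and 4594 CPM in cyAC. *SPP1*, for osteopontin, was at 238 and 464 CPM. *COL10A1*, for the collagen of hypertrophic cartilage, did not pass the filter, with 5.73 CPM in the graft and 8.79 CPM in cyAC, and was named after its values were seen. The limb mesenchyme gene *PRRX1* was higher in the graft, at 122 against 29.8 CPM, and of 29 listed HOX genes 0 passed the filter.

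Proteases and their inhibitors divided between the tissues, and of the 19 of 36 listed that passed the filter 4 were past the fold upward and 6 downward. *SERPINA1*, which encodes α1-antitrypsin, was at 3446 CPM in 99.4% of graft cells and 751 CPM in 54.1% of cyAC cells. *SERPINA3*, for α1-antichymotrypsin, was lower in the graft at 855 against 4645 CPM, as was *CST3*, for the cathepsin inhibitor cystatin C, at 1102 against 5671 CPM. *MMP3*, which encodes stromelysin, was at 299 CPM in 41.2% of graft cells and at 1441 CPM in 92.2% of cyAC cells.

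Acute phase and inflammatory genes leaned toward cyAC. Of the 15 of 26 listed that passed the filter, 1 was past the fold upward and 9 downward, with a median of -2.25, or 8 downward and a median of -1.91 with the zeros raised, and all listed genes summed to 1968 CPM in the graft and 6343 CPM in cyAC. *ICAM1*, which encodes an adhesion molecule for leukocytes, was at 4.05 CPM in the graft, 213 CPM in cyAC, 4.04 CPM before transplantation and 92.4 CPM in cyFT. *SOD2*, for the mitochondrial superoxide dismutase that NF-κB induces, was at 41.8 and 740.3 CPM in the graft and cyAC, a log2 ratio of -4.12, or -2.90 with the zeros raised. *RELB*, an NF-κB subunit gene, was at 4.39 and 65.0 CPM, and *LIF*, for a cytokine of the IL-6 family, at 70.8 and 628 CPM, a log2 ratio of -3.13, or -2.38 with the zeros raised. These 4 genes were lower in the graft, and cyFT, which shared a library with cyAC, had 325 CPM of *SOD2*. How long each tissue was digested within the stated range of the protocol is not given by sample, and the part of digestion in these genes was not tested.

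Genes of antigen presentation and interferon response lay on the other side. Of 22 listed genes 5 passed the filter, and all 5 were past the fold upward. *B2M*, which encodes the light chain of MHC class I, was at 2874 CPM in the graft, 1000.0 CPM in cyAC, 310.4 CPM before transplantation and 1890.0 CPM in cyFT. *HLA-F*, as the class I gene is listed, was at 951 and 175 CPM in the graft and cyAC. *IFI6*, an interferon-stimulated gene, was at 625 CPM in 96.9% of graft cells and 92.3 CPM in 35.9% of cyAC cells. *TAP1*, for the peptide transporter, had 53.8 and 12.6 CPM, a log2 ratio of 2.01 that was 0.93 in cells with *COL2A1* and no *COL1A1* reads. MHC genes differ between donors and their reads can be lost or split among near copies in alignment, so that *HLA-F* is uncertain. Few immune cells were found in either tissue, with 0 post-transplant cells and 1 cyAC cell showing reads of at least 3 of 4 pan-immune markers. The leukocyte gene *PTPRC* was at 0.201 and 2.28 CPM. Reads of *CD2*, *CD3D* and *CD3G* were thinly spread, at 8.34, 5.43 and 3.99 CPM in the graft, 8.12, 5.75 and 4.90 CPM in cyAC, and 5.12, 4.60 and 3.71 CPM in pre-transplant cyiPS-Cart. At least 3 of the 4 listed T cell markers had reads in 13 graft cells, 3 cyAC cells and 5 pre-transplant cells, and the part of such cells in the results was not tested.

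Genes of the early response, the circadian clock and the glucocorticoid response leaned toward the graft. Of the 20 of 24 listed early response genes that passed the filter, 9 were past the fold upward and 2 downward, with a median of 0.79. *FOS* and *JUN*, which encode the parts of AP-1, were at 5742 and 1587 CPM in the graft and at 754 and 247 CPM in cyAC. *FOSL1* and *MYC* ran the other way, with 11.6 and 64.8 CPM in the graft and 151 and 410.0 CPM in cyAC. The listed early response genes summed to 15312 CPM in the graft, 6207 CPM in cyAC and 10299 CPM in cyFT. The part of digestion in these genes was also not tested. Of the 14 of 19 listed clock genes that passed the filter, 6 were past the fold upward and 2 downward, with a median of 0.88. *NR1D1*, which encodes the clock repressor REV-ERBα, was at 1257 CPM in 95.9% of graft cells and at 132 CPM in 45.3% of cyAC cells, with 55.2 CPM before transplantation and 289 CPM in cyFT. *CIART* and *TEF*, whose products act in the same arm of the clock, were at 98.0 and 160.1 CPM in the graft and at 6.43 and 29.3 CPM in cyAC. *CRY1*, for a repressor of the opposite phase, was lower in the graft at 5.06 against 60.6 CPM, and the hour at which each tissue was taken is not given. Of the 10 of 20 listed glucocorticoid response genes that passed the filter, 7 were past the fold upward and 3 downward. All listed genes summed to less distant levels, 2681 CPM in the graft and 2167 CPM in cyAC, and to 3348 CPM in cyFT. Of the cyAC cells, 35% lay above the median graft cell in this sum. *CDKN1C*, an imprinted cell cycle inhibitor gene, was higher in the graft at 109 against 9.56 CPM, as was *TSC22D3*, for the mediator GILZ, at 355 against 82.4 CPM. *ERRFI1*, an EGF receptor inhibitor gene, was lower at 114 against 1179 CPM.

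**Figure D3:**
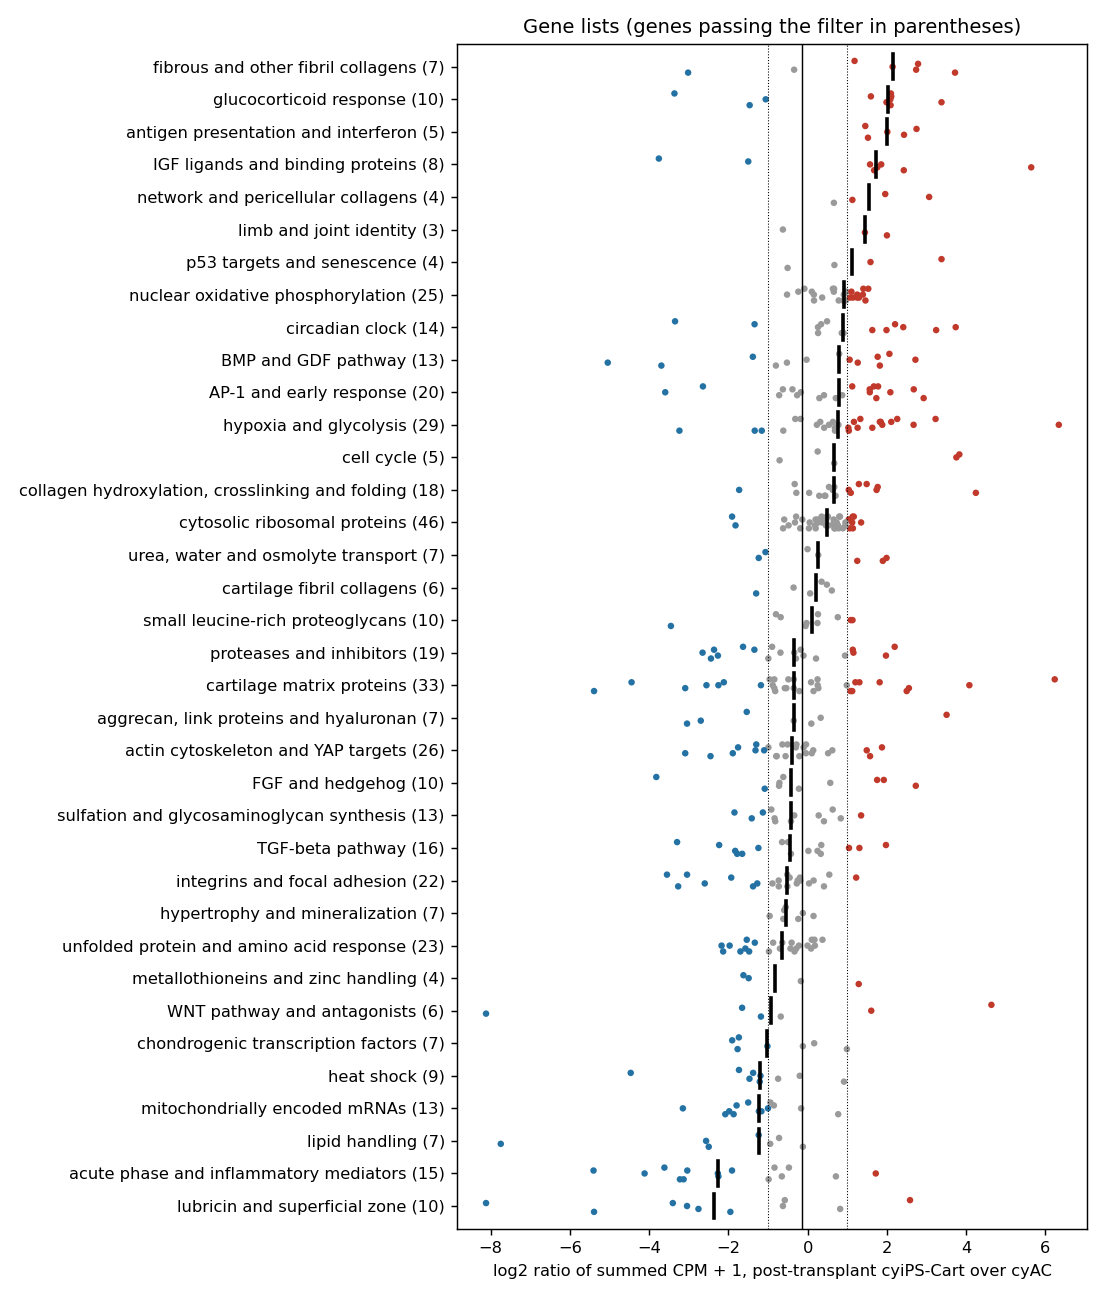
Log2 ratio of summed CPM + 1, post-transplant cyiPS-Cart over cyAC, for every compared member of 36 gene lists with at least 3 members compared (points), with the median of each list (thick bars), the median of all 3235 genes (thin line, -0.13) and the fold of -1 and 1 (dotted lines). The medians of the fibrous collagens, the glucocorticoid response genes and the antigen presentation genes lie furthest to the right, at 2.14, 2.04 and 2.01. The medians of the superficial zone and inflammatory genes lie at -2.35 and -2.25, and at -0.95 and -1.91 with the zeros raised.

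Hypoxia genes also leaned toward the graft. Of the 29 of 31 listed hypoxia and glycolysis genes that passed the filter, 14 were past the fold upward and 3 downward, with a median of 0.78. *ADM*, which encodes the vasodilator peptide adrenomedullin, was at 395 CPM in 69.4% of graft cells and at 3.89 CPM in 2.50% of cyAC cells, or 63.6% and 2.08% after thinning. Its level was 5.21 CPM before transplantation and 7.85 CPM in cyFT, so the graft stood alone among the 4 samples. *PFKFB4*, for an enzyme that steps up glycolysis, was at 75.7 and 7.19 CPM, and *LDHA*, for lactate dehydrogenase A, at 1159 and 461 CPM. *EPAS1*, which encodes HIF-2α, was lower in the graft at 7.47 against 78.8 CPM.

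Transcripts of the respiratory chain parted by genome. Of 13 mitochondrially encoded mRNAs, 9 were past the fold downward and 0 upward, while of 25 nuclear oxidative phosphorylation genes compared 10 were past the fold upward and 0 downward. The mitochondrial mRNAs summed to 19737 CPM in the graft and 36038 CPM in cyAC, and the nuclear genes to 4767 and 2675 CPM. *ND3*, a complex I subunit of the mitochondrial genome, was at 36.6 and 333 CPM in the graft and cyAC, and *COX8A*, a nuclear complex IV subunit gene, at 179.7 and 61.6 CPM. The authors removed cells with a high mitochondrial share, and the part of this step in the difference was not tested. Of 46 ribosomal protein genes compared, 8 were past the fold upward and 2 downward, with a median of 0.50. Of 9 heat shock genes compared, 6 were past the fold downward and 0 upward, and *CRYAB*, for the small chaperone αB-crystallin, was at 9.11 CPM in the graft and 222 CPM in cyAC. Of 23 unfolded protein and amino acid response genes, 8 were past the fold downward and 0 upward, with *MTHFD2*, for an enzyme of one-carbon metabolism, at 157 and 711 CPM.

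Some adhesion and cytoskeleton genes were far lower in the graft. Of the 22 of 27 listed integrin and focal adhesion genes that passed the filter, 1 was past the fold upward and 7 downward. *PXN*, which encodes the adhesion scaffold paxillin, was at 14.3 CPM in the graft and 178 CPM in cyAC. *SDC4*, for the heparan sulfate proteoglycan syndecan-4, was at 62.2 and 607 CPM, and *ITGA5*, for the α5 chain of the fibronectin receptor, at 71.9 and 440.2 CPM. Of 26 actin and YAP target genes, 3 were past the fold upward and 7 downward, with a median of -0.40. *CCN2*, for connective tissue growth factor, was at 126 CPM in 50.0% of graft cells and 1085 CPM in 94.1% of cyAC cells, while its relative *CCN1* was inside the fold at 3247 and 3755 CPM. Of 7 genes for urea, water and osmolyte transport, 3 were past the fold upward and 2 downward, with the urea transporter gene *SLC14A1* at 125 CPM in the graft, 32.8 CPM in cyAC and 0.376 CPM before transplantation. Of 7 lipid handling genes compared, 0 were past the fold upward and 4 downward (3 with the zeros raised), and of 4 metallothionein and zinc handling genes, 1 and 2. Of 4 p53 target and senescence genes and of 5 cell cycle genes compared, 2 each were past the fold upward and 0 downward.

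Some of the largest single ratios belonged to genes not yet described. After *GFP-polyA*, the genes furthest toward the graft were *DLK1*, *PENK* and *TNFSF11*. *PENK*, which encodes the opioid precursor proenkephalin, was at 240.5 CPM in 34.1% of graft cells, at 1954 CPM before transplantation and listed at 0 reads in cyAC. *TNFSF11*, for the osteoclast factor RANKL, was at 88.0 CPM in 35.9% of graft cells, 25.1 CPM before transplantation, 33.9 CPM in cyFT and listed at 0 reads in cyAC. *AGT*, for angiotensinogen, was at 190.0 CPM in the graft, 10.6 CPM in cyAC and 2226 CPM before transplantation. *AMOT*, for angiomotin of the Hippo pathway, was in 97.2% of graft cells and 25.6% of cyAC cells at 341 and 13.2 CPM. *CCND1*, for cyclin D1, was at 180.1 and 11.8 CPM, and *TYMS*, for thymidylate synthase, at 115 and 7.61 CPM. Among markers of dividing cells, *MKI67* was at 1.54 CPM in the graft and 0.507 CPM in cyAC, and was named after its values were seen, and 1 cell of each tissue had reads of at least 3 of 5 cycling markers.

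Toward cyAC the largest ratio on the scale of CPM + 1 was that of *CHGB*, which encodes chromogranin B of secretory granules, with 1173 CPM in cyAC and 0 reads in the graft. This level rested on few cells. In the 25 cyAC cells with neither *COL2A1* nor *COL1A1* reads *CHGB* was at 15516 CPM, with reads in 16 of them, and they held 13397 of its reads. In the 276 cyAC cells with *COL2A1* and no *COL1A1* reads it was at 41.9 CPM, with reads in 170 of them, and in the cyAC cells with *COL1A1* reads at 66.9 CPM. *APOD*, for apolipoprotein D, and *RAMP3*, for a receptor activity-modifying protein, were at 214 and 73.8 CPM in cyAC and listed at 0 reads in the graft. No fold is given for genes at 0 reads, since a zero can be a count that was replaced. *VCAM1*, for a vascular cell adhesion molecule, was at 6.23 CPM in the graft, 377 CPM in cyAC and 56.6 CPM in cyFT, and *HBEGF*, for an EGF-like ligand, at 18.7, 925 and 672 CPM. With the zeros raised, the log2 ratio of *VCAM1* went from -5.71 to -2.23 and that of *HBEGF* from -5.56 to -3.53. *NFATC2*, a calcineurin-regulated transcription factor gene, was at 189 CPM in 34.1% of graft cells and 3599 CPM in 98.1% of cyAC cells, with 2070.3 CPM before transplantation, and was named after its values were seen. *SH3BGRL3*, for a small thioredoxin-like protein, was at 4.49 and 2.82 CPM in the graft and the organoids before transplantation and at 899 and 863 CPM in cyAC and cyFT, with a log2 ratio of -7.36, or -3.33 with the zeros raised. *CTBS*, for the lysosomal enzyme chitobiase, followed the same division with 0.737 and 0.564 against 79.8 and 92.8 CPM. Both genes were thus high in the tissues of wild-type animals and low in both samples of the donor line, which were also sequenced apart from them. *S100A2*, for a calcium-binding protein, was at 3.99 CPM in the graft and 151 CPM in cyAC, but also at 145 CPM before transplantation, and its log2 ratio went from -4.93 to -1.16 with the zeros raised. *C1QL1*, for a secreted protein related to complement C1q, was at 4.86 and 180.3 CPM, *SORBS2*, for an actin-associated adaptor, at 1.37 and 72.6 CPM with a log2 ratio of -4.95, or -2.51 with the zeros raised, and *PROS1*, for the anticoagulant protein S, at 2.48 and 101 CPM.

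**Figure D4:**
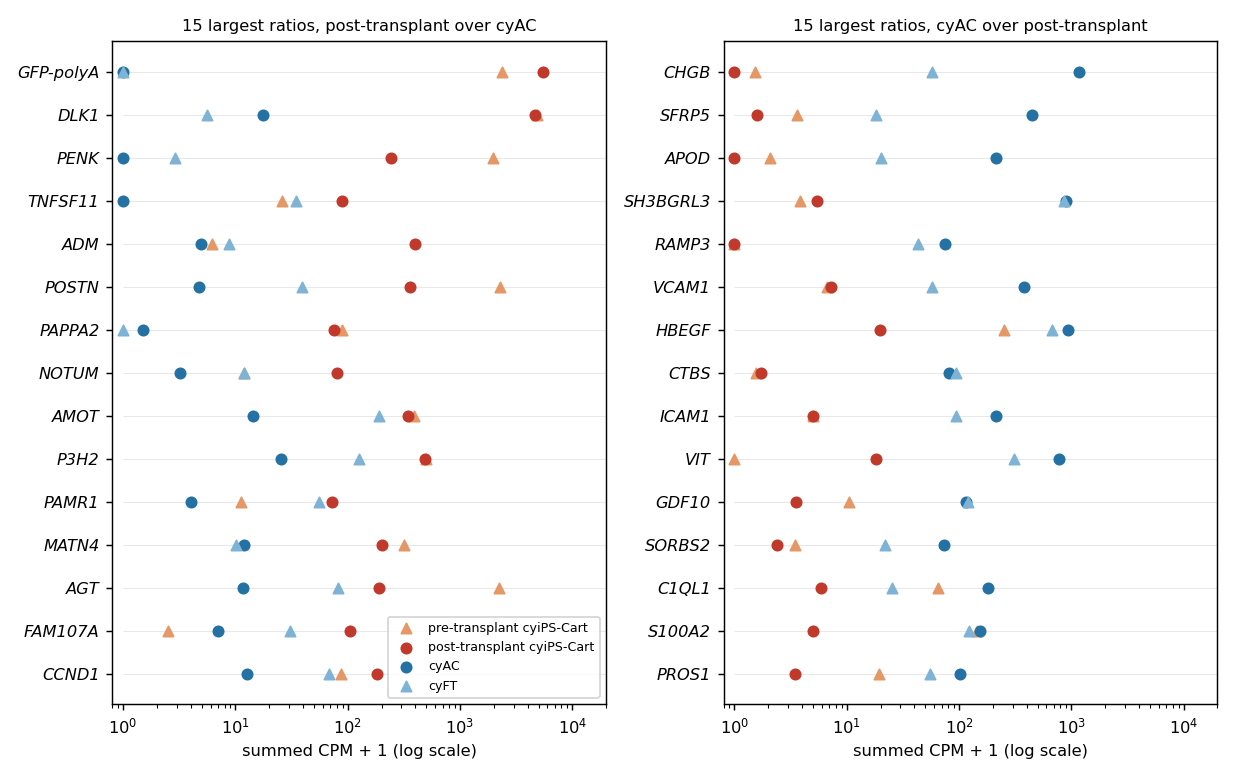
Summed level (CPM + 1, log scale) of the 15 genes with the largest ratio in each direction, in post-transplant cyiPS-Cart and cyAC (circles) and in pre-transplant cyiPS-Cart and cyFT (triangles). *DLK1*, *PAPPA2*, *AMOT* and *P3H2* had post-transplant levels close to the pre-transplant ones, while *ADM*, *NOTUM*, *PAMR1* and *FAM107A* were highest in the post-transplant sample.

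Markers of other cell types are named because they were fixed as markers. Those of vessels, bone, macrophages and pericytes were at low levels in both samples, and those of fibroblasts, which include collagens, were not. Endothelial markers summed to 0.469 CPM in the graft and 12.9 CPM in cyAC, with *VWF*, *CDH5*, *KDR* and *EMCN* at 0 in the graft, and macrophage markers to 4.39 and 23.8 CPM. Osteoblast markers summed to 5.53 CPM in the graft, where *IBSP*, *SP7*, *ALPL* and *DMP1* were at 0, and to 39.2 CPM in cyAC. Pericyte and smooth muscle markers summed to 32.3 and 25.7 CPM, and pluripotent cell markers to 1.24 and 1.27 CPM. The 5 fibroblast markers, which hold *COL1A1*, *COL1A2* and *COL3A1*, summed to 70658 CPM in the graft and 8625 CPM in cyAC, with reads of at least 3 of them in 145 and 43 cells. The fibroblast marker *THY1*, outside the collagens, was at 94.1 CPM in the graft and 278 CPM in cyAC, and *PDGFRA* at 6.23 and 12.6 CPM. The Y-linked gene *DDX3Y* was at 154 CPM in the graft and 499 CPM in cyAC, a log2 ratio of -1.69. *RPS4Y2*, the other of the 2 compared genes of its list, was inside the fold with a log2 ratio of 0.13.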

How the data were processed

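Single cells were profiled by TAS-Seq on sorted, hashtag-labelled live cells. The authors deposited a matrix of read counts per gene and cell. Before deposit they trimmed reads (cutadapt 3.4), aligned them (Bowtie2 2.4.2, per the submitters' notes) to transcripts of the cynomolgus genome with the transgene, assigned each cell to its tissue from its hashtag reads, replaced likely stray counts of genes of high level by 0, removed cells of high mitochondrial share, and reduced each sample to 320 cells. A count here is a read, not a molecule. From these counts, reads were summed per sample, scaled to CPM (numpy 2.4.6, pandas 2.3.3) and compared as log2(CPM + 1), with exact Poisson and Clopper-Pearson intervals (scipy 1.17.1). The scripts were tested on simulated data. Genes were compared at 50 CPM or more in either sample and with reads in 25% of cells of either. No test was run, because each condition was 1 sample.

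The cells, gene lists and markers were chosen with earlier results of these data known. Genes named are *COL1A2*, *PRG4*, *P3H2*, the 15 largest ratios in each direction, label checks (*COL2A1*, *COL1A1*, *ACAN*, *GFP-polyA*), and members of each list from the 4 largest absolute ratios and the 3 highest levels, beside the cell type markers. A gene outside these is said to be so. Scrublet (scanpy 1.11.5) marked 8 post-transplant and 2 cyAC cells as doublets, which were kept. TMM factors came from edgeR 4.0.16. Of the symbols, 94.9% were found in the RefSeq gene table, which was used for names only.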

Additional observations from a re-analysis of the deposited data

How the results depend on the processing

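The comparison was repeated with 12 alternatives and with 2 more chosen after seeing the data, one without marked doublets and one with zeros raised to 1 read below a gene's lowest count. Of the 923 genes past the fold, 744 stayed past it in the same direction under all 14 alternatives, 271 of them higher in post-transplant cyiPS-Cart and 473 higher in cyAC, and 5 changed sign under at least one of them (*FNDC1*, *IGFBP5*, *MINDY4*, *MLPH* and *TPPP3*, of which those not named above were named after their values were seen). With TMM factors the median log2 ratio over all genes was 0.011 in place of -0.13. A filter at 20 CPM and 10% of cells gave 594 genes higher in post-transplant cyiPS-Cart and 930 higher in cyAC, a filter at 100 CPM and 50% of cells gave 187 and 287, and no filter gave 1247 and 1937, since the filter sets how many genes are compared. Under the other alternatives both counts stayed within 1.5 times of 348 and 575. *TPPP3* turned to 1.27 with the zeros raised, and *IGFBP5* to 1.07 in cells with *COL2A1* and no *COL1A1* reads and to 0.11 without the 5% of cells with the highest CPM of each gene. No paired analysis was possible because each condition was 1 sample. For the same reason no replicate could be left out and no spread between animals is known. The depth of the cells limits shares of low genes. With cells thinned to equal depth, 866 of the 923 genes stayed past the fold in the same direction.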
